A study of Homo sapiens with 2 samples.

Results

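Cadherins are calcium-dependent adhesion proteins that join neighbouring cells through their extracellular repeats and, in the classical types, hold the actin cytoskeleton through catenins bound to their cytoplasmic tails. Epithelia typically carry E-cadherin (CDH1) and P-cadherin (CDH3), whereas mesenchymal cells typically carry N-cadherin (CDH2) and cadherin-11 (CDH11), and an exchange of the former for the latter is a textbook feature of the epithelial-mesenchymal transition. CDH11 is also known as osteoblast cadherin, and osteoblasts are the bone-forming cells that osteosarcoma resembles. DNase I cuts open chromatin more readily than DNA wrapped in nucleosomes, so clusters of cuts (hotspots) mark accessible regulatory DNA. A hotspot does not report transcription, and the deposited lists hold no expression values.

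The genes described are 8 cadherin genes chosen by name, of 20037 protein-coding genes in the RefSeq table. They were CDH1 and CDH3 (epithelial), CDH2 and CDH11 (mesenchymal), CDH4 (R-cadherin), CDH5 (VE-cadherin of endothelium), CDH6 (K-cadherin) and CDH13. CDH13 (T-cadherin) is attached to the membrane by a lipid anchor and lacks a cytoplasmic tail, so it is not a classical cadherin in the strict sense. Every hotspot overlapping a gene span or the 50 kb on either side was taken, and this stretch is called the window. The data were DNase-seq hotspot lists from Saos-2 and from U2OS, both established lines grown from human osteosarcoma, with 1 library of genomic DNA each. Nuclei of both lines were digested for 3 min at 37 °C. The lists held 51556 hotspots in Saos-2 and 63388 in U2OS, so U2OS supplied 55.1% of all hotspots, and the read depth of neither library is known. With 1 library per line there is no replicate error and no test between the lines. Intervals are exact Clopper-Pearson 95% binomial intervals. They account for counting error alone and treat nearby hotspots as independent, which they are not.

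Lineage markers were counted in the same lists. A hotspot lay within 1 kb of a gene end for 4 of 8 osteoblast markers and 3 of 6 mesenchyme markers in each line, shares close to the 47.8% (Saos-2) and 53.2% (U2OS) of all protein-coding genes. For 8 epithelium markers the number was 0 in Saos-2 and 3 in U2OS, namely KRT8, KRT18 and CLDN4, and for 6 endothelium markers it was 0 in both lines. Hotspots in the window were compared by a rule of at least 2 times as many in a line and at least 4 more. In favour of U2OS it was met by 3 of 8 epithelium markers (KRT8, KRT18 and KRT19) and 2 of 8 osteoblast markers (COL1A1 and ALPL). For mesenchyme markers the number was 0 of 6, and for endothelium markers 2 of 6. No marker of the 4 lists met it in favour of Saos-2. Over all protein-coding genes, 10.9% met it for U2OS and 3.69% for Saos-2. KRT8 and KRT18 both lie on chromosome 12, and hotspots that their windows may share were not counted separately. The part of these markers in the cadherin results was not tested.

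The epithelial and mesenchymal genes lay on opposite sides of the balance between the lists. The windows of CDH1 and CDH3 together held 5 distinct hotspots in Saos-2 and 17 in U2OS. Those of CDH2 and CDH11 held 17 in Saos-2 and 8 in U2OS. The U2OS share was 77.3% (interval 54.6 to 92.2%) for the epithelial pair and 32.0% (14.9 to 53.5%) for the mesenchymal pair. The first interval just included the 55.1% of the whole lists, and the second lay just below it. The interval of the mesenchymal pair also reached the whole-list share with windows of 0 or 100 kb, in the top 50% of each list and with hotspots of at least 200 bp. In the last setting its U2OS share was 44.4% (21.5 to 69.2%). With lists of equal length, where the whole-list share is 50% by construction, the epithelial interval of 50.9 to 91.3% lay above that share and the mesenchymal interval included it.

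**Figure D1:**
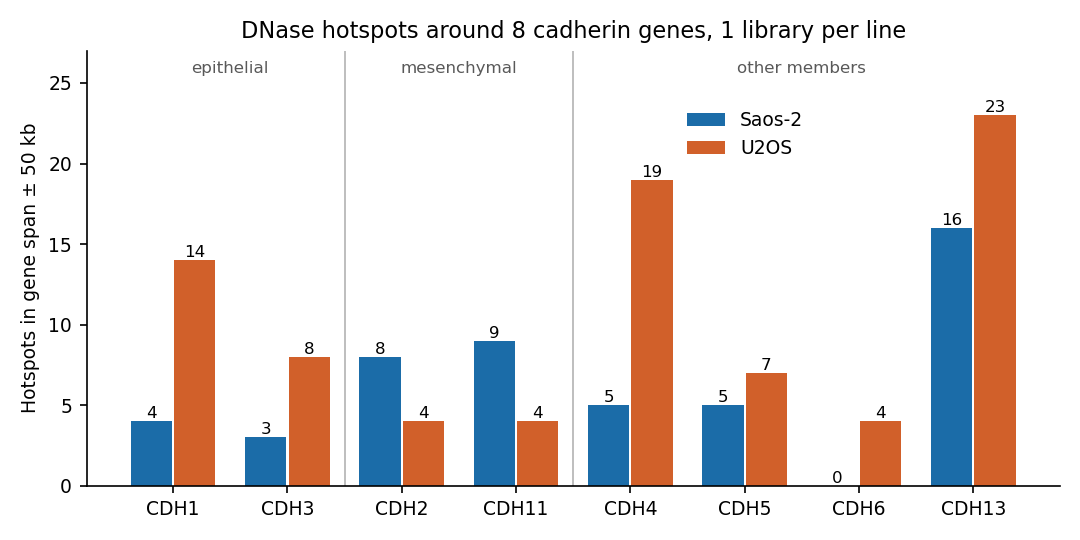
Number of DNase hotspots (vertical axis) within the gene span and 50 kb on both sides, for each of 8 cadherin genes (horizontal axis). Blue bars are Saos-2 and orange bars U2OS, 1 library each. U2OS had more hotspots around 6 genes and Saos-2 more around CDH2 (8 against 4) and CDH11 (9 against 4).

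At least 1 hotspot lay in the window of 7 of the 8 genes in Saos-2 and of 8 in U2OS, beside 89.2% and 94% of all protein-coding genes. U2OS had the larger number at 6 members and Saos-2 at 2, beside 51% and 29.2% of all protein-coding genes. A gene was called higher in a line that had at least 2 times as many hotspots in the window as the other and at least 4 more. By this rule 4 of the 8 genes were higher in U2OS (CDH1, CDH3, CDH4 and CDH6), 2 were higher in Saos-2 (CDH2 and CDH11), and CDH5 and CDH13 were not called. Over all protein-coding genes, 10.9% were called higher in U2OS and 3.69% in Saos-2. Among the 16467 genes whose hotspots in both lists summed to between 4 and 39, as for the members, these shares were 13.2% and 4.48%. The calls of CDH1 and CDH3 share a locus. CDH2 and CDH6 stood exactly at the minimum difference of 4. Lists of equal length removed only the CDH6 call, windows of 0 kb removed those of CDH2 and CDH6, and windows of 10 kb those of CDH2, CDH3 and CDH6. Windows of 100 kb removed those of CDH2, CDH11 and CDH6, and a width of at least 200 bp left CDH1 and CDH4. Restricting the lists to their top 50% left only the CDH4 call.

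The median hotspot density of the members was below that of all protein-coding genes in both lines, with a wide range. The member windows had a median of 1.80 hotspots per 100 kb in Saos-2 and 2.11 in U2OS, compared with 2.56 and 2.97 over all protein-coding genes. The lowest density was that of CDH6 in Saos-2, at 0, and the highest that of CDH1 in U2OS, at 7.06.

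The gene ends themselves mostly had no listed hotspot in either line, which does not measure closed chromatin. Only CDH2 in Saos-2 had a hotspot within 1 kb of an end, which made 1 of 8 members in Saos-2 and 0 of 8 in U2OS. The background for all protein-coding genes was 47.8% in Saos-2 and 53.2% for U2OS. Within 2.5 kb of the start (both ends where the RefSeq tables gave no strand), 2 members had a hotspot in each line. In Saos-2 these were CDH2 and CDH11, and in U2OS they were CDH5 and CDH3, the latter at its higher-coordinate end, which faces CDH1 and is not its start.

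CDH3 (gene 1001, chromosome 16, 68645310 to 68733771) and CDH1 (gene 999, chromosome 16, 68737292 to 68835537) adjoin each other with a gap of 3.52 kb. Their windows therefore share 2 Saos-2 and 5 U2OS hotspots, which were counted 1 time each in the pair. CDH1 encodes the main adhesion protein of epithelial junctions, and CDH3 that of basal epithelial layers. Around CDH1, 4 hotspots were found in Saos-2 and 14 in U2OS, covering 1501 and 3796 bp. CDH3 had 3 and 8, covering 1367 and 2655 bp. U2OS was thus the line with more sites at both genes, and the excess was made of sites that Saos-2 did not share.

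The strongest site of this locus was common to both lines and lay inside CDH3. At 68707367 to 68708172, Saos-2 had a hotspot of 806 bp with a significance of 23.7, where significance is the authors' −log10 value for each hotspot. Only 2.80% of the Saos-2 list had a higher value. The U2OS hotspot there spanned 68707343 to 68708128, with a significance of 14.8 that 12.7% of its list exceeded. Its centre lay 29.6 kb below the lower-coordinate end of CDH1. Values in lists of different length do not measure a change, so they are given side by side.

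The other shared sites were at 68658649 to 68658962 inside CDH3, where the Saos-2 value was 6.66 and the U2OS value 13.8, and at 68802324 to 68802609 inside CDH1, with 5.59 and 5.64. The remaining 2 Saos-2 hotspots of the pair, both inside CDH1, had values of 3.63 and 2.67. In U2OS 14 hotspots had no Saos-2 overlap, and those in the CDH1 window ranged in significance from 1.90 to 10.8. The highest, at 68823462 to 68823808, lay inside CDH1, 11.9 kb from its higher-coordinate end, and 20.2% of the U2OS list ranked above it. Another, at 68704390 to 68704681 inside CDH3, had a significance of 8.34.

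The start of CDH1 itself was not marked. The hotspot nearest to its lower-coordinate end, where transcription of CDH1 is known to begin, was 4.58 kb away in Saos-2 and 5.06 kb away in U2OS. For CDH3 the nearest to the lower-coordinate end was 13.3 kb away in both lines. Of the U2OS hotspots in the CDH1 window, 2 lay within 1 kb of an end of the neighbouring gene TANGO6. Hotspots further inside that gene were not searched for. Leaving such hotspots out, a setting chosen after seeing the data, gave 5 in Saos-2 and 15 in U2OS for the pair.

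**Figure D2:**
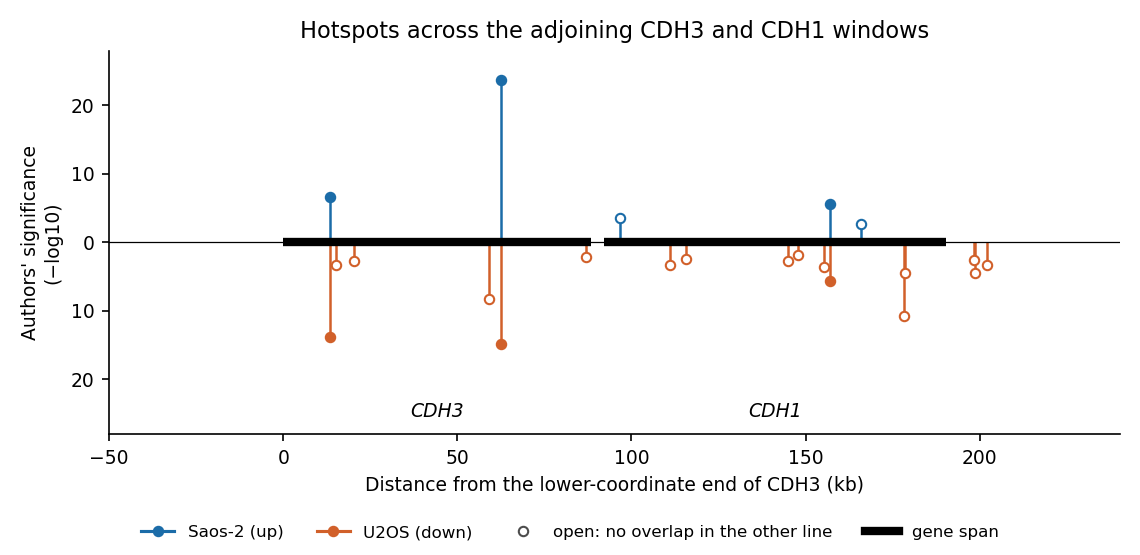
Hotspots across the joint window of CDH3 and CDH1, by distance in kb from the lower-coordinate end of CDH3 (horizontal axis) and the authors' −log10 significance (vertical axis, Saos-2 up and U2OS down). Black bars are gene spans and open circles hotspots with no overlap in the other line: U2OS has 14 of these and Saos-2 has 2.

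The pairs also differed in how far their U2OS sites were shared. Of the 17 U2OS hotspots at the epithelial pair, 3 (17.6%, interval 3.80 to 43.4%) overlapped a Saos-2 hotspot. At the mesenchymal pair 8 of 8 did (100%, interval 63.1 to 100%). The whole U2OS list had 46.9%, which lay outside both intervals. With an overlap of at least 50% of both hotspots, the counts were 3 of 17 and 6 of 8, and the whole-list share of 35.9% lay inside both intervals (3.80 to 43.4% and 34.9 to 96.8%). In the opposite direction, 3 of 5 Saos-2 hotspots at the epithelial pair (60%) and 8 of 17 at the mesenchymal pair (47.1%) were overlapped, compared with 58.1% of the whole Saos-2 list. Both of these intervals included the whole-list value.

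CDH2 (gene 1000, chromosome 18, 27932879 to 28177130) encodes N-cadherin, the main cadherin of neurons, heart muscle and many mesenchymal cells. Saos-2 had 8 hotspots in its window and U2OS 4, covering 2148 and 1063 bp. Each of the 4 U2OS hotspots matched a Saos-2 hotspot, so the lines differed by 4 further Saos-2 sites. The Saos-2 value was the higher in all 4 matched pairs. Inside the gene, the pair at 28065423 to 28065770 had values of 9.45 in Saos-2 and 7.63 in U2OS, the highest of the window in each line. The pair at 28115135 to 28115543 had 7.95 and 3.28. Outside the gene the values were 8.73 and 6.98 at 27922027 to 27922390, in the antisense gene CDH2-AS1, and 5.73 and 3.36 at 28204239 to 28204531. Over the whole lists, the U2OS value was the higher at 63.8% of overlapped Saos-2 hotspots.

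The 4 Saos-2 sites of CDH2 without overlap were weak, with values from 2.16 to 3.41. One of them lay at the gene's start. CDH2 is on the minus strand, so it starts at its higher-coordinate end, and the hotspot at 28177175 to 28177316 began 0.045 kb before that start. It was 142 bp wide with a significance of 2.16, and 81.9% of the Saos-2 list had a higher value. The nearest U2OS hotspot was 27.1 kb from the start.

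The RefSeq promoter table (GRCh38.p14, the primary assembly of hg38) matched 2 of the 8 genes, CDH2 and CDH4, with 2 starts each. The 250 bases before each CDH2 start are shown, because only the first of them held a hotspot. Both are written 5′ to 3′ on the minus strand, and capitals mark the bases inside the Saos-2 hotspot. The first is at chr18:28177131-28177380 and the internal one at chr18:28036642-28036891.
CDH2 first start: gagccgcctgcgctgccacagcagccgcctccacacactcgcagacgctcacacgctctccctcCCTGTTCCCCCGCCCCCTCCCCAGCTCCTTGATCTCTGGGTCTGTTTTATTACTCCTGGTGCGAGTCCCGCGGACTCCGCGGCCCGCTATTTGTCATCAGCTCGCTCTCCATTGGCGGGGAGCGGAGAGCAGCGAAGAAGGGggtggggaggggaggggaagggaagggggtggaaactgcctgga
CDH2 internal start: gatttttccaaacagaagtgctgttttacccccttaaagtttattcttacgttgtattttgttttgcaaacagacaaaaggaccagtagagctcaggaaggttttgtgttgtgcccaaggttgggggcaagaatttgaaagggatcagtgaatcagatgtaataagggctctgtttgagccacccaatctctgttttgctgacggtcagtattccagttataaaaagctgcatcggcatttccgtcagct

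The first CDH2 promoter was 66.0% G or C and held 17 CpG dinucleotides, 11 of them inside the hotspot. The internal promoter was 42.0% G or C with 4 CpG dinucleotides. Over the 35116 promoters of the table, the medians were 58.0% and 11. Among those promoters 30.5% were overlapped by a Saos-2 hotspot and 33.9% by a U2OS hotspot.

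Motifs were searched on both strands in the same 250 bases. The E-box CAGGTG, the form bound by SNAI and ZEB repressors, was in neither CDH2 promoter and in 17.5% of all promoters. The general E-box CANNTG, which includes the former, was in the internal CDH2 promoter only, and in 61.8% of all promoters. The AP-1 motif TGANTCA was also in the internal promoter only, 102 bases before that start, and in 6.57% of all promoters. The GC box GGGCGG was in the first promoter only, 177 bases before the start and within the capitals, and in 42.6% of all promoters. The internal starts of CDH4 held no hotspot, and one of them, at chr20:61499171-61499420, had a CAGGTG 16 bases before the start.

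CDH11 (gene 1009, chromosome 16, 64943753 to 65123744) was flanked by or contained 9 Saos-2 hotspots and 4 U2OS hotspots, covering 1731 and 1391 bp. As at CDH2, every U2OS hotspot was matched by a Saos-2 hotspot. Here, however, the U2OS value was the higher in all 4 pairs, beside 63.8% of overlapped Saos-2 hotspots over the whole lists. The line with more hotspots was thus not the line with the higher values. The pair below the gene, at 64910362 to 64910789 in U2OS, had values of 7.18 in Saos-2 and 29.1 in U2OS. Only 3.03% of the U2OS list exceeded the latter, whereas 26.9% of the Saos-2 list exceeded the former. The pair inside the gene at 65070784 to 65071213 had 6.72 and 25.8, and that at 64983987 to 64984317 had 2.45 and 16.1. No other hotspot of the CDH11 window had a value above 10 in either line.

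The 5 Saos-2 hotspots of CDH11 without overlap had values from 1.65 to 4.59. Among them were 3 between 65119931 and 65122390, near the higher-coordinate end, where CDH11 is known to start. The closest to that end lay 1.35 kb inside the gene, and the closest U2OS hotspot 5.55 kb. Many of the Saos-2 sites at CDH11 were narrow: with hotspots of at least 200 bp the count was 4 in both lines, so the call was lost.

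**Figure D3:**
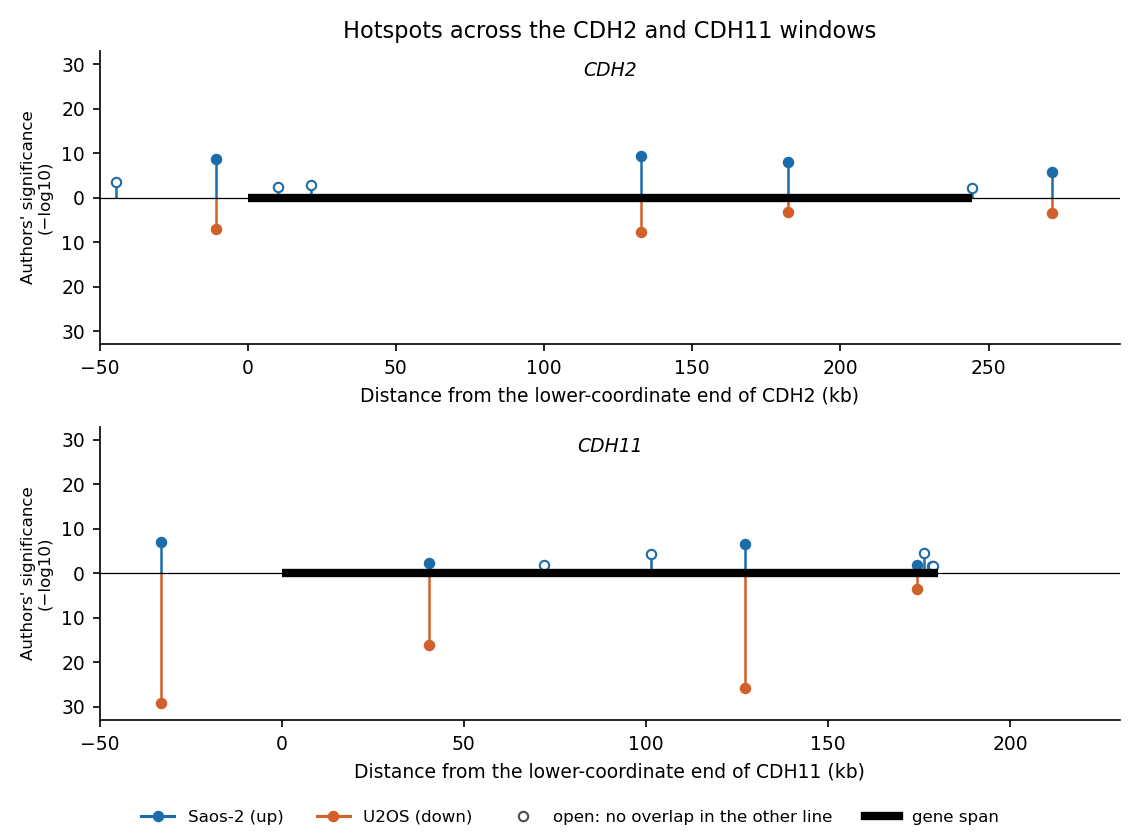
Hotspots across the windows of CDH2 (top) and CDH11 (bottom), by distance in kb from the lower-coordinate gene end and the authors' −log10 significance (Saos-2 up, U2OS down). All U2OS circles are filled, as each overlaps a Saos-2 hotspot. At CDH11 3 U2OS hotspots reach 16.1, 25.8 and 29.1, and no Saos-2 hotspot exceeds 7.18.

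The genomic surroundings of the genes were closer to the whole lists than the windows were. Within 5 Mb on both sides, with the window left out, the U2OS share was 56.2% (interval 51.7 to 60.5%) around CDH1 and 59.8% (54.8 to 64.8%) around CDH11. It was 50% (43.1 to 56.9%) around CDH2. CDH1 and CDH11 lie on the same chromosome, which had a U2OS share of 58.0%, and their windows lay on opposite sides of it. The copy number of these regions in either line is not known from the lists.

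**Figure D4:**
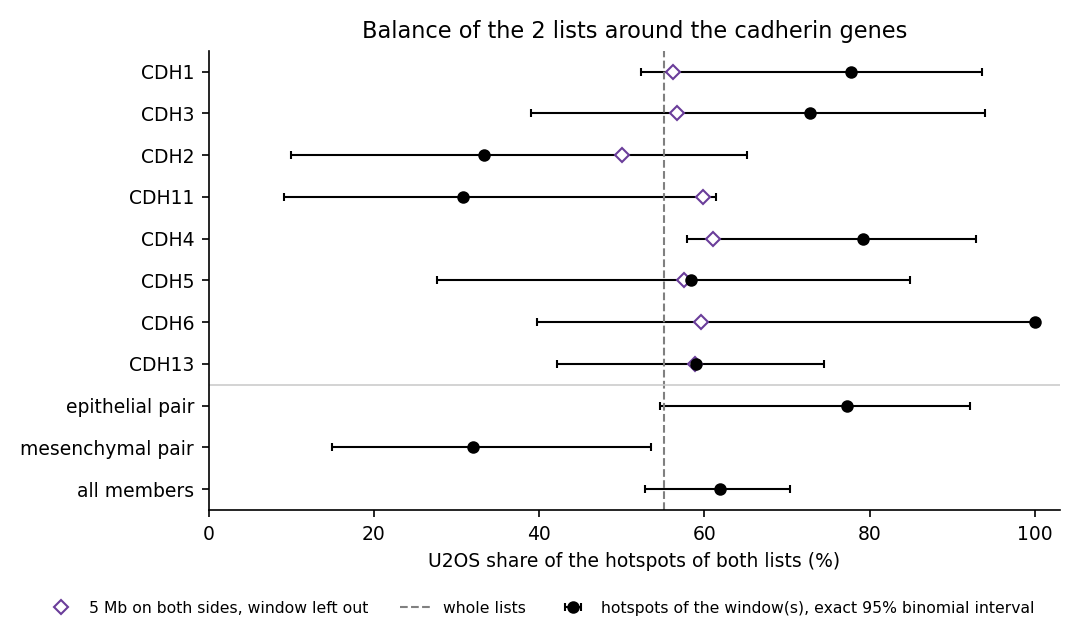
U2OS share of the hotspots of both lists in percent (horizontal axis) for each gene window and for the pooled windows, with exact 95% binomial intervals. Diamonds are the share within 5 Mb on both sides and the dashed line the whole lists (55.1%): the epithelial pair lies at 77.3% and the mesenchymal pair at 32.0%.

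CDH4 (gene 1002, chromosome 20, 61252261 to 61940617) encodes R-cadherin, first known from the retina. It had the largest difference in count of the 8 genes, with 5 Saos-2 hotspots and 19 U2OS hotspots, covering 656 and 4929 bp. All lay inside the gene. The U2OS share of 79.2% (interval 57.8 to 92.9%) lay above the whole-list share, and it was 61.0% in the surrounding 5 Mb. No Saos-2 hotspot of CDH4 exceeded a value of 3.26, and with hotspots of at least 200 bp, or in the top 50% of the list, Saos-2 had 0.

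The strongest U2OS site of CDH4, at 61640182 to 61640663, was 482 bp wide with a value of 27.6 and had no Saos-2 overlap. Only 3.47% of the U2OS list ranked above it. A further U2OS site without overlap had a value of 11.0, at 61436708 to 61437213 within the non-coding gene LOC105372703. It lay beside a shared site, at 61436254 to 61436607, with 2.97 in Saos-2 and 11.6 in U2OS. The other shared sites of CDH4 had 3.26 and 9.36, 1.34 and 11.9, and 2.66 and 8.99 in Saos-2 and U2OS, respectively. In each of the 4 matched pairs the U2OS value was the higher, beside 63.8% of overlapped Saos-2 hotspots over the whole lists.

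CDH6 (gene 1004, chromosome 5, 31193686 to 31329146) encodes a cadherin of fetal kidney. No Saos-2 hotspot lay in its window. The nearest to both gene ends was the same hotspot, 57.2 kb beyond the higher-coordinate end and thus 192.7 kb from the lower-coordinate end. U2OS had 4 hotspots, with values of 1.65, 2.80, 3.58 and 5.47, so all were modest. The one with 3.58 lay 2.74 kb inside the lower-coordinate end. A window with U2OS but no Saos-2 hotspots was found for 6.53% of protein-coding genes. In the 100 kb window Saos-2 had 2 hotspots.

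CDH5 (gene 1003, chromosome 16, 66366691 to 66404784), the adhesion protein of endothelial junctions, had 5 Saos-2 hotspots and 7 U2OS hotspots. A neighbouring pair of sites inside the gene was open in both lines. In U2OS they were 561 and 452 bp wide, at 66382288 to 66382848 and at 66382865 to 66383316, with values of 20.3 and 30.3. In Saos-2 the matching hotspots were 243 and 264 bp wide with values of 2.97 and 3.89. The U2OS site with 30.3 was the highest of CDH5, and 2.69% of its list ranked above it. The strongest Saos-2 site of the window, with 8.78, lay at 66433831 to 66434194 inside the neighbouring gene BEAN1, where U2OS had 5.08. The defining endothelium markers had no hotspot at a gene end in either line, as given above. By hotspots in the window, 2 of these 6 markers (TIE1 and VWF) were called higher in U2OS, beside 10.9% of all protein-coding genes. The others were not called. In Saos-2 and U2OS, TEK had 7 and 12, KDR 4 and 4, PECAM1 8 and 6, and ERG 10 and 6.

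CDH13 (gene 1012, chromosome 16, 82626969 to 83800640) is the longest of the 8 genes and had the most hotspots, with 16 in Saos-2 and 23 in U2OS. Its U2OS share of 59.0% (interval 42.1 to 74.4%) included that of the whole lists. Of the Saos-2 hotspots 10 were overlapped, and the U2OS value was the higher at 8 of these, beside 63.8% over the whole lists. The strongest site in both lines was the same, near the middle of the gene. It lay at 83137332 to 83137743 in Saos-2, with a value of 11.3, and at 83137013 to 83137778 in U2OS, with 35.9, which was the highest value of any member. The hotspot closest to the lower-coordinate end, where CDH13 is known to start, lay 2.61 kb inside the gene in Saos-2 and 2.59 kb inside in U2OS, with values of 7.19 and 23.5.

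Sites without overlap were found along CDH13 in both lines. Between 83588311 and 83620684, a stretch of 32.4 kb picked out after the values had been seen, Saos-2 had 5 hotspots with values from 1.44 to 8.47 and U2OS had 0. The sixth Saos-2 site without overlap, at 82888659 to 82888845, had a value of 2.26. The 13 U2OS hotspots without overlap had values from 1.39 to 9.80, the highest at 82996114 to 82996452. A shared site with 6.27 in Saos-2 and 12.9 in U2OS lay within 1 kb of 1 of the 2 ends of the neighbouring gene HSBP1.

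**Figure D5:**
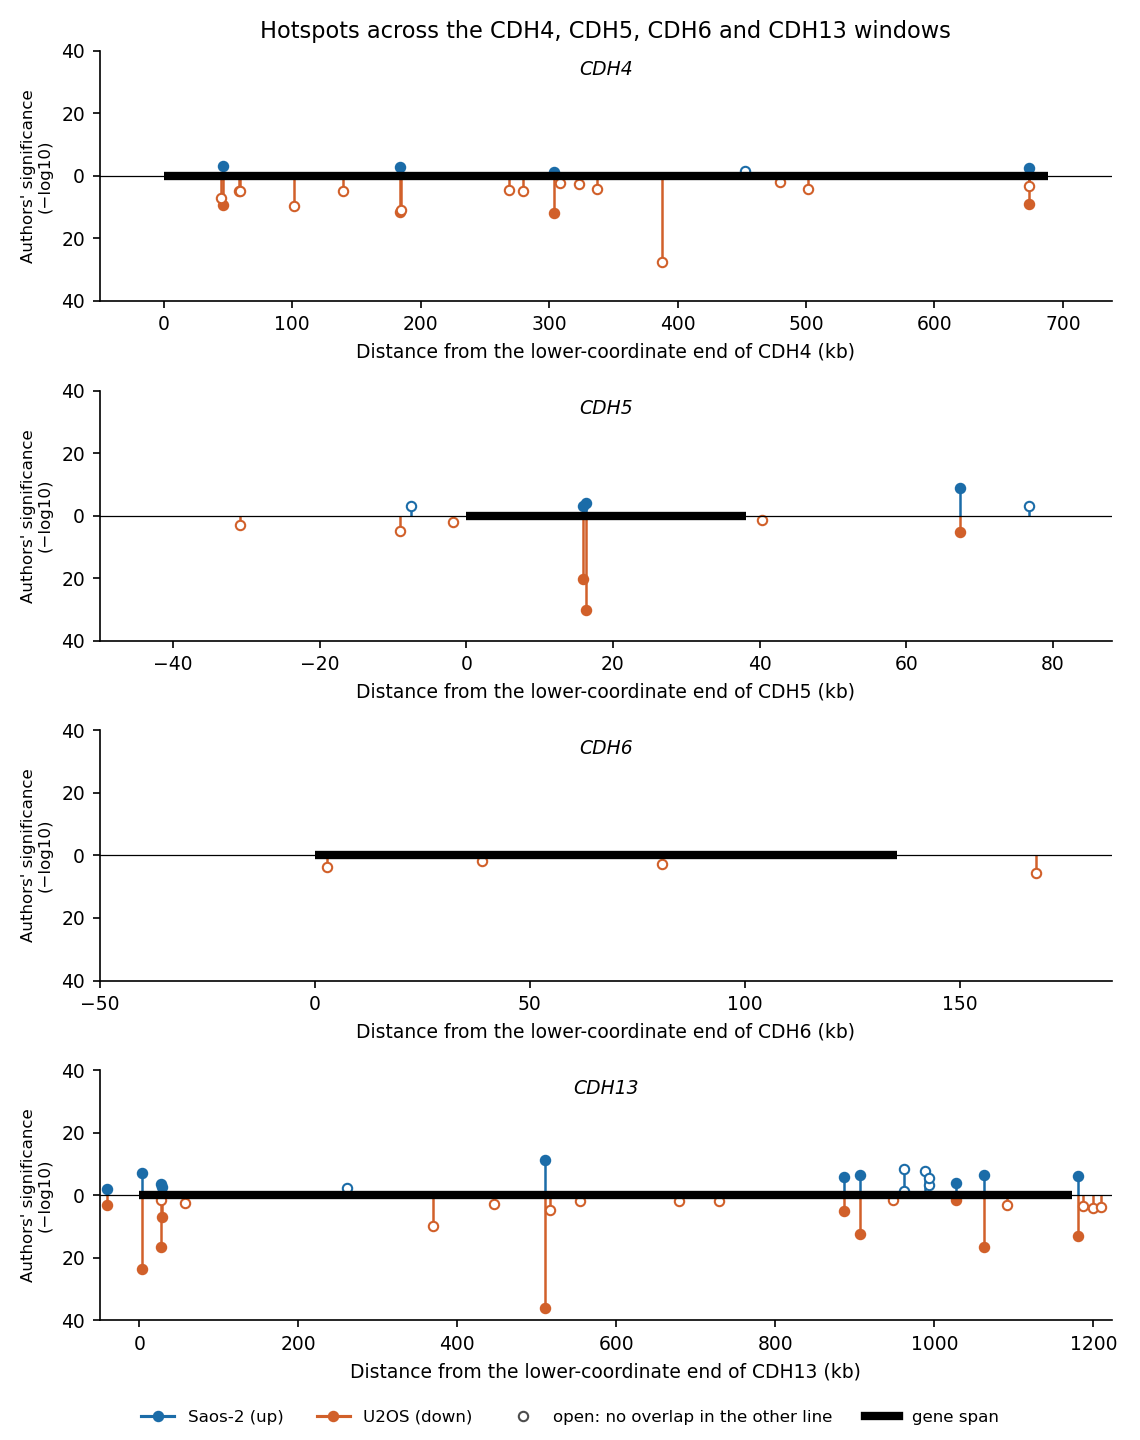
Hotspots across the windows of CDH4, CDH5, CDH6 and CDH13, by distance in kb from the lower-coordinate gene end and the authors' −log10 significance (Saos-2 up, U2OS down, open circles without overlap). CDH4 has 15 open U2OS circles and 1 open Saos-2 circle, and CDH6 has no Saos-2 hotspot.

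The 8 genes together had 48 distinct hotspots in Saos-2 and 78 in U2OS, a U2OS share of 61.9% (interval 52.8 to 70.4%) that included the whole-list value. A value of at least 10 was reached by 2 of the Saos-2 hotspots (4.17%, interval 0.509 to 14.3%), against 17.1% of the whole Saos-2 list. In U2OS 18 reached it (23.1%, interval 14.3 to 34.0%), close to the 22.5% of the whole U2OS list. In Saos-2 28 (58.3%, interval 43.2 to 72.4%) were overlapped, against 58.1% of the whole list. In U2OS 28 were (35.9%, interval 25.3 to 47.6%), against 46.9%.

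Related genes were counted from fixed lists in the same way. Of 11 other cadherin genes of the classical types, 3 were called higher in U2OS and 0 in Saos-2, beside 10.9% and 3.69% of all protein-coding genes. These were CDH12 (2 hotspots in Saos-2 and 7 in U2OS), CDH18 (5 and 15) and CDH22 (4 and 10). Among the rest, CDH20 (5 and 2) and CDH24 (13 and 9) had more hotspots in Saos-2 without being called. The list's median was 2 hotspots in Saos-2 and 3 in U2OS, compared with 4 in both lines over all protein-coding genes. Of 11 catenin genes and junction partners, 5 were called higher in U2OS and 0 in Saos-2, beside the same 10.9% and 3.69%. Their medians of 6 and 10 were above the 4 of all protein-coding genes. Windows with more hotspots reach a difference of 4 more easily, and the background was not matched to this list. The 5 included the alpha-catenins CTNNA2 (8 and 18) and CTNNA3 (2 and 25), which link cadherin complexes to actin, and the p120-related CTNND2 (7 and 21) and PKP4 (4 and 11). JUP, which encodes plakoglobin, had 6 and 15. Beta-catenin (CTNNB1), the partner of all classical cadherin tails, had 8 and 10 and was not called.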

How the data were processed

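Each library gave 1 list of DNase hotspots on hg38, called by the authors at a false discovery rate of 0.05 per the file names. The submitters' processing notes name Trimmomatic 0.38 and BWA 0.7.15; the hotspot caller is not given in the sources used here. The deposited −log10 significance per hotspot is capped at 100; the lists have no header, and this unit was read from the values. The deposited score is about 10 times that value and was not used. Per the labels' protocols, libraries had between 8 and 10 PCR cycles. Read depth is unknown.

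Starts were converted to 1-based positions. A hotspot was counted when it overlapped a window by at least 1 bp, and hotspots of the lines were matched by the same overlap. Gene positions came from RefSeq (GRCh38.p14). Its promoter table gave the strand of CDH2 and CDH4, so both ends were searched for the other genes. Named were all 8 genes, list genes called by the fold rule, and, per window and line, the most significant hotspot, those within 1 kb of a start, and unmatched ones of at least 10; further sites were added after their values were seen. The genes and lists were chosen with earlier results of these data known. Alternatives were windows of 0, 10 and 100 kb, top 50% lists, lists of equal length, merging below 150 bp, a width of at least 200 bp, 50% overlap, and start distances of 500 bp and 2.5 kb. Counting was tested on simulated intervals. Python 3.11.15, pandas 2.3.3 and SciPy 1.17.1 were used.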

Additional observations from a re-analysis of the deposited data

How the results depend on the processing

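No paired analysis was possible because there was only 1 library per line, which also means that none could be left out. With the top 50% of each list, the epithelial pair fell to 3 (Saos-2) and 5 (U2OS), the mesenchymal pair 8 and 5, and all members 21 and 37. With hotspots of at least 200 bp, the epithelial pair had 11 in U2OS, the mesenchymal pair 10 in Saos-2, and all members 51 in U2OS. The mesenchymal pair in U2OS had 5 hotspots with windows of 0 kb and of 10 kb, and 14 with 100 kb. Within 2.5 kb of a start, or of either end where no strand was given, 2 member genes had a hotspot in Saos-2 and 2 in U2OS. In U2OS CDH3 was counted by its higher-coordinate end, which is not its start. These changes follow from fewer hotspots or from shorter or longer windows. The other 72 of 86 recomputed totals and shares stayed within 1.5-fold or within the interval. For single genes, 95 of 128 counts stayed within 1.5-fold. CDH1, CDH3, CDH4 and CDH6 had more hotspots in U2OS and CDH2 more in Saos-2 in each of the 8 alternatives for which counts per gene were recomputed. CDH11 had more in Saos-2 in these except at a width of at least 200 bp, where it was equal, and CDH13 and CDH5 turned to Saos-2 there (CDH5 with 5 against 4). CDH5 was also equal with windows of 0 kb and with lists of equal length. Unknown read depth limits every count: a deeper library yields more hotspots.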
